A study of Homo sapiens with 24 samples.

Results

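The 10 genes described here encode regulators of the neural crest, and they are NGFR, FOXD3, SOX10, SOX9, TFAP2A, PAX3, EDNRB, ERBB3, SNAI2 and TWIST1. They were looked up by symbol, with earlier results of these data known when the set was drawn up, and all 10 were found among the 25268 genes of the expression table. The neural crest is an embryonic cell population that leaves the border of the neural plate, migrates, and gives rise to melanocytes, Schwann cells, peripheral neurons and other cells. At the border TFAP2A and PAX3 act first, FOXD3, SOX9 and SOX10 then specify crest cells, and SNAI2 and TWIST1 drive the loss of epithelial contacts. The receptors NGFR, EDNRB and ERBB3 bind neurotrophins, endothelins and neuregulins on crest cells and their descendants. Melanomas keep parts of this program, and high NGFR marks a neural crest-like, less pigmented state.

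The RNA came from A375 cells, a cultured human line of malignant melanoma, and was read in 24 libraries, 3 for each of 8 groups. The groups were DMSO as the solvent control, nucleotides, 25 µM A771726, and 25 µM A771726 given with nucleotides, each at 24 and at 48 h. A771726 is the active metabolite of leflunomide and blocks dihydroorotate dehydrogenase, an enzyme of pyrimidine synthesis, and the series concerns the response to nucleotide shortage and the RNA helicase DDX21. No group carries a genetic change beyond those of the line. A375 is a single cultured line, the nucleotides and their dose are not named in the labels, and nothing says whether replicates came from separate cultures, so the spread behind each p-value may be technical.

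Levels are in FPKM, which corrects fragment numbers for the length of the transcript and the size of the library, so levels of different genes can be set side by side. Read depth is unknown. In 22 libraries the FPKM summed to between 459325 and 773002, and the median rank correlation of a library with the others was 0.905 to 0.970. The sums differed by treatment. At 24 h they were 740088, 729588 and 769510 in DMSO, 459325, 582736 and 545372 with A771726, and 631717, 573390 and 682517 with both agents. TPM scaling, used below as an alternative, sets every library to the same sum and so raises A771726 libraries relative to DMSO at 24 h. The A771726 group at 48 h held a pair of libraries, its replicates 1 and 2, unlike the rest. Replicate 1 summed to 231144 with a median rank correlation of 0.747, and replicate 2 summed to 2283900 with 0.178, with 16198 genes listed at 0 and 60.8% of its FPKM on MIR3687. Each 48 h result of a member with A771726 alone is therefore given with and without these libraries. Without both, replicate 3 is the only A771726 library and has no spread of its own. Its differences are therefore given without a test. Among the other 22, the lowest median rank correlations were 0.905 (A771726 replicate 1 at 24 h) and 0.910 (A771726 replicate 3 at 48 h). Of 10 melanoma markers, 9 averaged 1 FPKM or more over the 24 libraries. MLANA did so only through 238.5 FPKM in A771726 replicate 2 at 48 h. MIA, a secreted melanoma protein, ran from 189.7 to 425.7 FPKM in the 22 libraries, whereas the melanosomal genes PMEL and MLANA reached at most 1.81 and 0.521 FPKM there.

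Promoter sequences are shown for EDNRB, whose level followed A771726 and nucleotides at 24 h, and for FOXD3, whose promoter held the most motif matches. Only 4 of the 10 members had an entry in the promoter table used, and the other 2 (TFAP2A and PAX3) held no match to any motif searched. Each line runs 5′ to 3′ over 300 bases, from 250 bases before to 50 bases after a RefSeq transcription start on GRCh38.p14, a build other than the hg19 of the expression values. The first EDNRB start lies in chr13:77919633-77919932 and the second in chr13:77918782-77919081, both on the minus strand, and FOXD3 lies in chr1:63322317-63322616 on the plus strand. Capitals mark motif matches.
EDNRB start 1: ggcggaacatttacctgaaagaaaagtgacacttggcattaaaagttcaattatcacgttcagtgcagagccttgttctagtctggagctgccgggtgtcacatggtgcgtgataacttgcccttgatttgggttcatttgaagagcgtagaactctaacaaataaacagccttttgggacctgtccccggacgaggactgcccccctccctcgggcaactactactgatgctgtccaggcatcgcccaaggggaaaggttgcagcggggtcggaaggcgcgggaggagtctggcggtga
EDNRB start 2: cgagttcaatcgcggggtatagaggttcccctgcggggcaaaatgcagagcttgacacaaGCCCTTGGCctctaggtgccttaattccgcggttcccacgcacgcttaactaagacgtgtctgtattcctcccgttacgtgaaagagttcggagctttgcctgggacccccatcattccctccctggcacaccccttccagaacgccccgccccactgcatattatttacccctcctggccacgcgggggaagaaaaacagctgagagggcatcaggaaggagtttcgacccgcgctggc
FOXD3: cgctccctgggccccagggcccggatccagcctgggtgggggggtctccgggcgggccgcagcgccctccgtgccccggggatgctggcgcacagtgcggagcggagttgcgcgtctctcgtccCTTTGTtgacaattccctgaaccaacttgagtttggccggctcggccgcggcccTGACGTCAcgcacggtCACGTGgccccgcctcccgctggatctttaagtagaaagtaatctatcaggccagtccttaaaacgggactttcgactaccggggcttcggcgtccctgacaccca

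The motifs searched on both strands were the E-box CACGTG, the cAMP response element TGACGTCA, the SOX motif ACAAAG and the TFAP2 motif GCCNNNGGC. In FOXD3, CACGTG begins 56 bases and TGACGTCA 72 bases before the start, and CTTTGT, which is ACAAAG on the reverse strand, begins 126 bases before it. The second EDNRB start holds GCCNNNGGC once, 190 bases before the start, and the first holds no match. Among 35116 promoters of this length, 7.26% hold CACGTG, 1.85% TGACGTCA, 16.1% ACAAAG and 23.2% GCCNNNGGC. These matches describe letters in a window. Which start A375 cells used was not measured.

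In DMSO the 10 genes fell into 3 tiers. At 24 h ERBB3 (38.1 ± 3.14 FPKM, SD, n = 3) and SOX10 (31.4 ± 5.98) overlapped at the top and did not overlap with NGFR (12.3 ± 2.21). TWIST1 (8.84 ± 1.45), EDNRB (7.36 ± 0.220), FOXD3 (6.95 ± 1.26) and PAX3 (5.39 ± 0.602) followed NGFR, and each overlapped with its neighbour in the order. TFAP2A (0.341), SNAI2 (0.152) and SOX9 (0.0386) had mean levels below 1 FPKM. The order was the same in DMSO at 48 h, where FOXD3 and PAX3 no longer overlapped. DMSO cells held little RNA of a border factor (TFAP2A), a crest specifier (SOX9) and a transition factor (SNAI2).

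**Figure D1:**
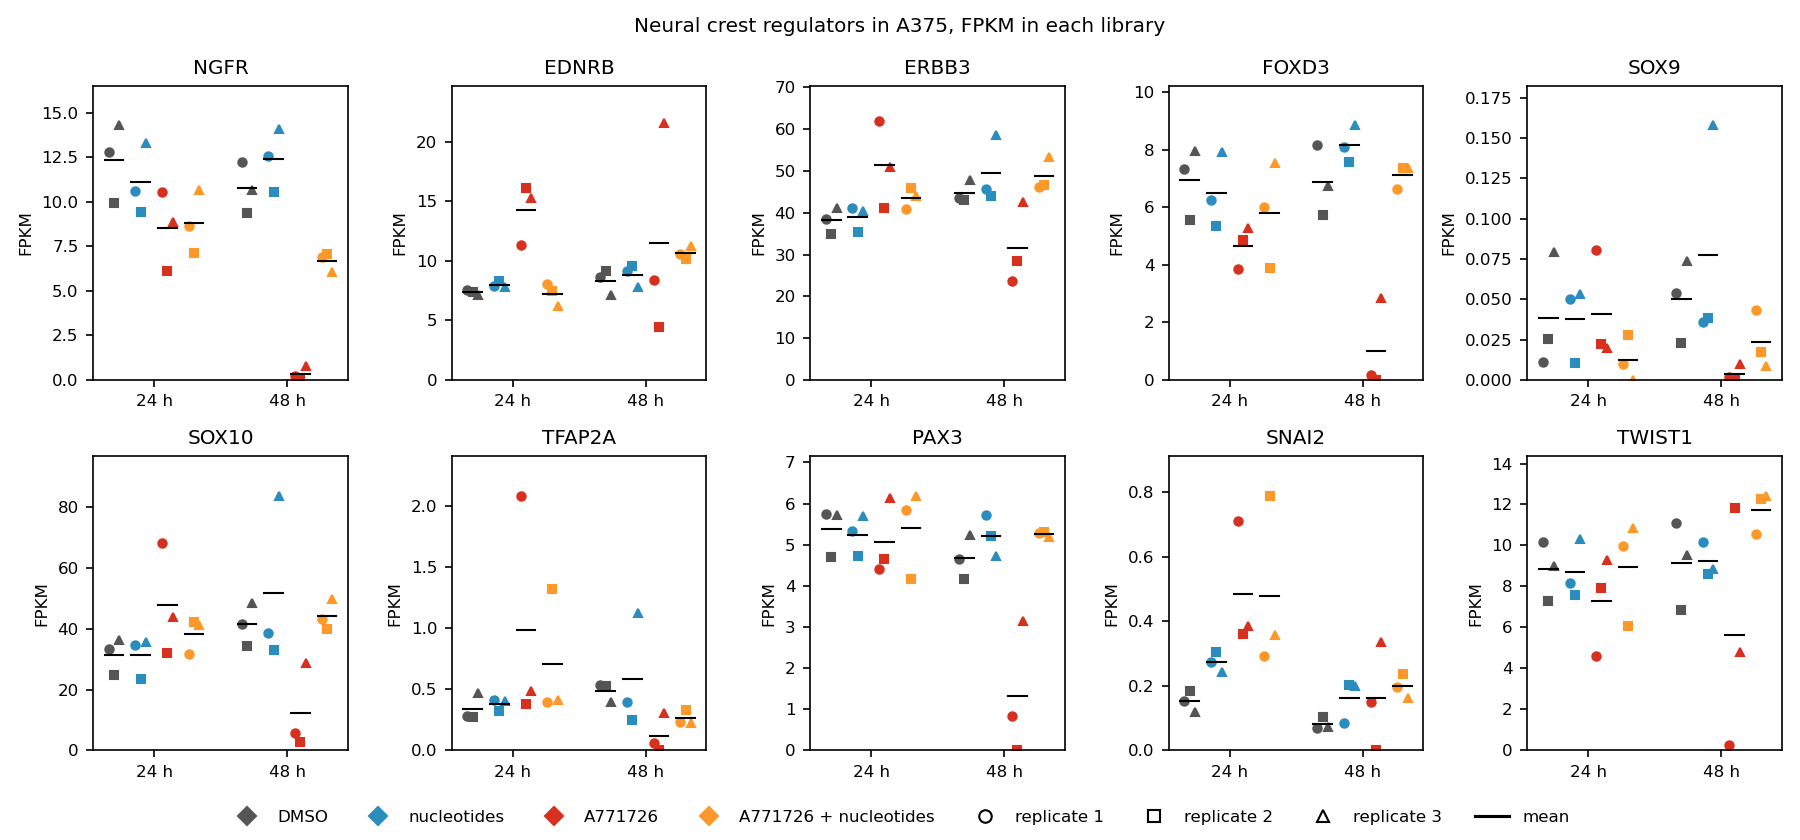
FPKM of each of the 10 genes in every library, by treatment and time, with bars at group means. The A771726 libraries at 24 h stand above all the other 24 h libraries for EDNRB, and NGFR is at 0.775 FPKM or lower in the 3 A771726 libraries at 48 h.

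Of the 10 genes, 7 averaged 1 FPKM or more across the 24 libraries and were tested together with 12035 other genes. The tests were limma fits on log2(FPKM + 1), a scale that understates changes of low genes, with Benjamini-Hochberg adjustment over all 12042 genes and calls at an adjusted p under 0.05. Comparisons that share a control group are not independent of each other, and A771726 alone enters both the comparison with DMSO and that with added nucleotides.

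EDNRB, the endothelin receptor of crest and melanocyte precursors, was the member that followed A771726 at 24 h. Its FPKM were 7.56, 7.40 and 7.13 in DMSO and 7.89, 8.27 and 7.84 with nucleotides. They were 11.4, 16.1 and 15.3 with A771726, and 8.07, 7.47 and 6.22 with A771726 and nucleotides. All 3 A771726 libraries lay above the other 9 libraries of that time. The log2 fold change of A771726 against DMSO was 0.85 ± 0.13 (SE), with an adjusted p of 0.00145 by limma. Adding nucleotides lowered EDNRB by a log2 fold change of -0.88 ± 0.13 against A771726 alone (adjusted p = 0.00141). The interaction, which tests whether the A771726 difference itself depended on nucleotides, was -0.99 ± 0.18 (adjusted p = 0.0134). In bulk RNA, fewer cells with a transcript and less of it per cell cannot be told apart. The 3 calls held without any 1 library of the fit (adjusted p up to 0.0407), and none held in a fit on all 24 libraries, which includes the 2 that stood apart (adjusted p of 0.354, 0.429 and 1). The fall with nucleotides was also lost with only the groups compared in the fit (0.0567).

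EDNRB was the 1 tested member of 7 that rose with A771726 at 24 h, and no member fell, whereas 10% of all tested genes rose and 7.79% fell (17.8% in all). EDNRB was also the 1 member of 7 that fell when nucleotides were added to A771726, where 9.03% of all tested genes fell and 4.3% rose (13.3% in all). It was the 1 called for the interaction, with a negative sign, where 3.31% of all tested genes were negative and 1.37% positive (4.68% in all). The median log2 fold change of the 7 members under A771726 was -0.08, beside 0.03 over all tested genes. Under TPM scaling ERBB3, SOX10 and PAX3 were also called higher against DMSO, giving 4 of 7, and the genes called over the whole table went from 2148 to 5337. With a term for replicate number 4 of 7 were called as well, and the genes called over the whole table went to 3560. For A771726 against DMSO at 24 h the members' share of calls was near that of all tested genes in the fit on FPKM as deposited without that term.

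At 48 h the EDNRB values scattered. DMSO libraries held 8.66, 9.14 and 7.12 FPKM, and A771726 libraries held 8.36, 4.47 and 21.6 FPKM. With nucleotides EDNRB was 9.15, 9.60 and 7.79, and with A771726 and nucleotides 10.6, 10.1 and 11.3. Only replicate 3 of A771726 was above all the others. The log2 fold change of A771726 against DMSO was 0.18 ± 0.43 (adjusted p = 0.738). With replicate 3 as the only A771726 library it was 1.29. Under the same restriction A771726 with nucleotides differed from A771726 by -0.95. With all 3 libraries that difference was 0.15 ± 0.43 (adjusted p = 0.781), and without replicate 3 it was 0.70 (adjusted p = 0.0322).

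ERBB3, the neuregulin receptor that pairs with ERBB2, was high everywhere. At 24 h it was at 38.4, 34.9 and 41.1 FPKM in DMSO, 41.2, 35.4 and 40.5 with nucleotides, 62.0, 41.1 and 51.0 with A771726, and 40.9, 45.9 and 44.1 with both agents. A771726 replicate 2 lay within the DMSO range and the other 2 above it. The log2 fold change was 0.40 ± 0.14 and did not pass (adjusted p = 0.0705). It passed without that replicate 2 (0.55, adjusted p = 0.0126) and under TPM scaling (0.90, adjusted p = 0.00538). A limma fit with a term for replicate number also called it (adjusted p = 0.0413). At 48 h ERBB3 was at 43.5, 43.1 and 47.8 FPKM in DMSO, 45.6, 44.1 and 58.7 with nucleotides, 23.7, 28.5 and 42.6 with A771726, and 46.2, 46.5 and 53.2 with both. The A771726 libraries lay below the DMSO libraries without overlap, yet the log2 fold change of -0.53 ± 0.26 did not pass (adjusted p = 0.133). Without A771726 replicate 3 it was -0.76 (adjusted p = 0.00713), and with replicate 3 alone it was -0.07. Added nucleotides gave 0.65 ± 0.26 (adjusted p = 0.0782), and 0.88 without A771726 replicate 3 (adjusted p = 0.00351). The second value rests on the 2 libraries that stood apart. A771726 replicate 3 differed from the DMSO mean by -0.07, and the libraries with both agents by 0.05, 0.06 and 0.25.

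NGFR, the p75 neurotrophin receptor, had the largest log2 fall with A771726 at 48 h of the 7 tested members. At 24 h its FPKM were 12.8, 9.93 and 14.3 in DMSO, 10.6, 9.45 and 13.3 with nucleotides, 10.5, 6.13 and 8.88 with A771726, and 8.62, 7.11 and 10.7 with both agents. These ranges overlapped, and the A771726 difference of -0.50 ± 0.21 did not pass (adjusted p = 0.130). It passed in a limma fit with a term for replicate number (adjusted p = 0.0122). At 48 h the values were 12.2, 9.39 and 10.6 in DMSO, 12.6, 10.6 and 14.1 with nucleotides, 0.204, 0 and 0.775 with A771726, and 6.88, 7.10 and 6.06 with both. The A771726 libraries were far below all the others, and the libraries with both agents lay between them and DMSO without overlap. The log2 fold change of A771726 against DMSO at 48 h was -3.18 ± 0.26 (adjusted p = 0.000573), and that of added nucleotides against A771726 alone was 2.57 ± 0.26 (adjusted p = 0.00237).

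NGFR was low in all 3 A771726 libraries, but its listed 0 in replicate 2 can be a failed estimate, since MIA and MITF were listed at 0 there too. The same holds for the zeros of FOXD3 and PAX3 in that library. Without replicate 2 the differences from DMSO were -3.00 for NGFR, -1.89 for FOXD3 and -1.04 for PAX3, and each passed (adjusted p of 4.55e-05, 0.00831 and 0.0179). In replicate 3, whose median difference over all tested genes was -0.24, NGFR differed from the DMSO mean by -2.72, and 0.340% of tested genes had a lower difference. In replicates 1 and 2 the NGFR differences were -3.28 and -3.55, where 2.40% and 9.43% of tested genes were lower and the medians over all tested genes were -1.03 and -1.47. With replicate 3 alone the fold changes were -2.72 against DMSO and 2.11 for added nucleotides. Both NGFR calls on all 3 A771726 libraries held without each library of the fit in turn. Both were lost in fits on only the groups compared (adjusted p of 0.200 and 0.183). A771726 with nucleotides against DMSO gave -0.61 ± 0.16 for NGFR at 48 h, which did not pass over all genes (adjusted p = 0.364).

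FOXD3, a forkhead repressor that specifies the crest and keeps it undifferentiated, fell with A771726 at 48 h. At 24 h it was at 7.34, 5.54 and 7.97 FPKM in DMSO, 6.25, 5.33 and 7.93 with nucleotides, 3.85, 4.86 and 5.28 with A771726, and 6.02, 3.90 and 7.52 with both agents. The A771726 values lay below the DMSO values without overlap, but the difference of -0.49 ± 0.21 did not pass (adjusted p = 0.146). It passed in a limma fit with a term for replicate number (adjusted p = 0.0367). At 48 h it was at 8.16, 5.74 and 6.75 FPKM in DMSO, 8.09, 7.57 and 8.84 with nucleotides, 0.167, 0 and 2.83 with A771726, and 6.64, 7.36 and 7.37 with both. All 3 A771726 libraries were below all the others. The fold change was -2.25 ± 0.44 (adjusted p = 0.0125) against DMSO and 2.30 ± 0.44 (adjusted p = 0.0120) for added nucleotides. With replicate 3 alone these were -1.03 and 1.08. The first call was lost without DMSO replicate 1 (adjusted p = 0.0616) or 3 (0.0634), and the second without any of the 3 libraries with both agents (0.0556, 0.0558 and 0.0607).

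**Figure D2:**
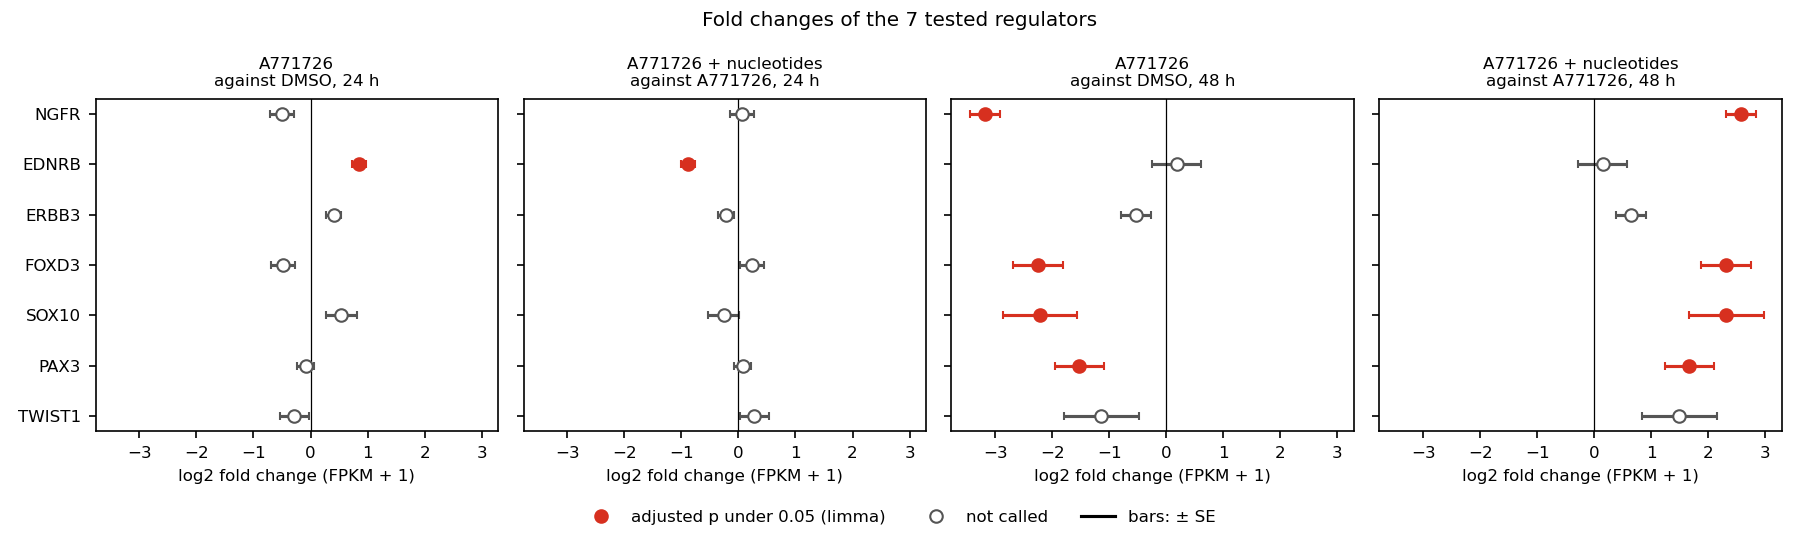
Log2 fold changes of the 7 tested genes on the log2(FPKM + 1) scale in 4 comparisons, with bars of ± 1 SE and filled points for an adjusted p under 0.05 by limma. EDNRB is the called gene at 24 h (0.85 and -0.88), and NGFR, FOXD3, SOX10 and PAX3 are called at 48 h.

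SOX10, which drives melanocyte and glial identity, varied widely within groups. At 24 h it was at 33.3, 24.7 and 36.2 FPKM in DMSO, 34.7, 23.4 and 35.7 with nucleotides, 68.0, 32.0 and 43.7 with A771726, and 31.6, 42.2 and 41.1 with both agents. The groups overlapped, and the A771726 difference was 0.54 ± 0.27 (adjusted p = 0.194). Under TPM scaling SOX10 passed (1.04, adjusted p = 0.0235). At 48 h it was at 41.7, 34.1 and 48.5 in DMSO, 38.5, 33.0 and 83.7 with nucleotides, 5.58, 2.76 and 28.8 with A771726, and 43.1, 39.8 and 49.8 with both. The 2 lowest values were those of the libraries that stood apart. The fold changes at 48 h were -2.22 ± 0.65 (adjusted p = 0.0300) against DMSO and 2.32 ± 0.65 (adjusted p = 0.0261) for added nucleotides. With replicate 3 alone they shrank to -0.49 and 0.59. The first call was lost without DMSO replicate 1 (adjusted p = 0.0869), 2 (0.0641) or 3 (0.0960), or A771726 replicate 1 (0.0749), or with no filter on low genes (0.0557), and the second without A771726 replicate 1 (0.0685) or any of the 3 libraries with both agents (0.0749, 0.0719 and 0.0845).

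SOX10 overlaps POLR2F, a subunit gene of the RNA polymerases, on the opposite strand, and the strand setting of the counting is not given. POLR2F ran from 4.37 to 55.0 FPKM over the 24 libraries. Without strand, reads over bases that both genes share cannot be told apart. The overlap was read from whole gene spans, and shared exon bases were not measured. In A771726 replicate 1 at 24 h, where SOX10 was at 68.0 FPKM, POLR2F was at 17.4. The antisense gene SOX9-AS1 reached at most 0.160 FPKM, RNF219-AS1 beside EDNRB 0.0762, TFAP2A-AS1 0.366, and CCDC140 beside PAX3 0.153.

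PAX3, a paired-box factor of the plate border and of melanocyte stem cells, stayed between 4.16 and 6.18 FPKM in the 21 libraries outside A771726 at 48 h. At 24 h it was at 5.76, 4.69 and 5.71 FPKM in DMSO and 4.41, 4.66 and 6.14 with A771726, with a difference of -0.08 (adjusted p = 0.743), and it was at 5.33, 4.72 and 5.69 with nucleotides and 5.85, 4.17 and 6.18 with both agents. Under TPM scaling that PAX3 difference turned to 0.36 and passed (adjusted p = 0.0492). At 48 h it was at 4.66, 4.16 and 5.23 in DMSO, 5.72, 5.21 and 4.74 with nucleotides, 0.844, 0 and 3.15 with A771726, and 5.28, 5.31 and 5.19 with both agents. The A771726 libraries were the 3 lowest. The fold changes were -1.52 ± 0.42 (adjusted p = 0.0254) against DMSO and 1.67 ± 0.42 (adjusted p = 0.0202) for added nucleotides, and with replicate 3 alone -0.45 and 0.59. The first call was lost without DMSO replicate 1 (0.0784), 2 (0.0590) or 3 (0.0861) or A771726 replicate 1 (0.0601). The second was lost without A771726 replicate 1 (0.0515) or any of the 3 libraries with both agents (0.0662, 0.0670 and 0.0698). Both were also lost for PAX3 with a pseudocount of 0.1 (0.0600 and 0.0537) and with only the groups compared (0.204 and 0.183).

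TWIST1, a basic helix-loop-helix factor of the mesenchymal crest, was at 10.2, 7.31 and 9.01 FPKM in DMSO and 4.63, 7.95 and 9.31 with A771726 at 24 h, which overlapped. It was then at 8.18, 7.58 and 10.3 with nucleotides and 9.97, 6.06 and 10.9 with both agents. At 48 h it was at 11.1, 6.87 and 9.51 in DMSO, 10.2, 8.63 and 8.88 with nucleotides, 0.243, 11.8 and 4.82 with A771726, and 10.6, 12.2 and 12.4 with both agents. A771726 replicate 2 was above all 3 DMSO libraries and the other 2 below them. The fold change of -1.14 ± 0.66 against DMSO did not pass (adjusted p = 0.188), nor did that of 1.49 ± 0.66 for added nucleotides (adjusted p = 0.102). Without replicate 2 they were -1.89 (adjusted p = 0.0181) and 2.24 (adjusted p = 0.0106), and with replicate 3 alone -0.78 and 1.13.

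Of the 7 tested members, 4 fell with A771726 at 48 h and none rose, whereas 32% of all tested genes fell and 0.83% rose (32.9% in all). The same 4 genes, NGFR, FOXD3, SOX10 and PAX3, were higher with added nucleotides than with A771726 alone, against 31.9% of all tested genes (32.6% in either direction). The genes called against DMSO over the whole table numbered 3956, and 25 without DMSO replicate 3 to 7261 without A771726 replicate 3. Under TPM scaling NGFR was the 1 member called in either comparison, and under median-of-ratios scaling NGFR and FOXD3 were called in both. The members' median fold change against DMSO was -1.52, and the median over all tested genes was -0.87. With replicate 3 as the only A771726 library, 4 members fell (NGFR, FOXD3, PAX3 and TWIST1) and EDNRB rose, against 22% and 7.27% of all tested genes (29.2% in all). Their median was then -0.49, beside -0.24 over all tested genes. In that restricted fit, added nucleotides raised the 4 genes that fell and lowered EDNRB, against 23.1% and 6.7% of all tested genes (29.8% in all).

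**Figure D3:**
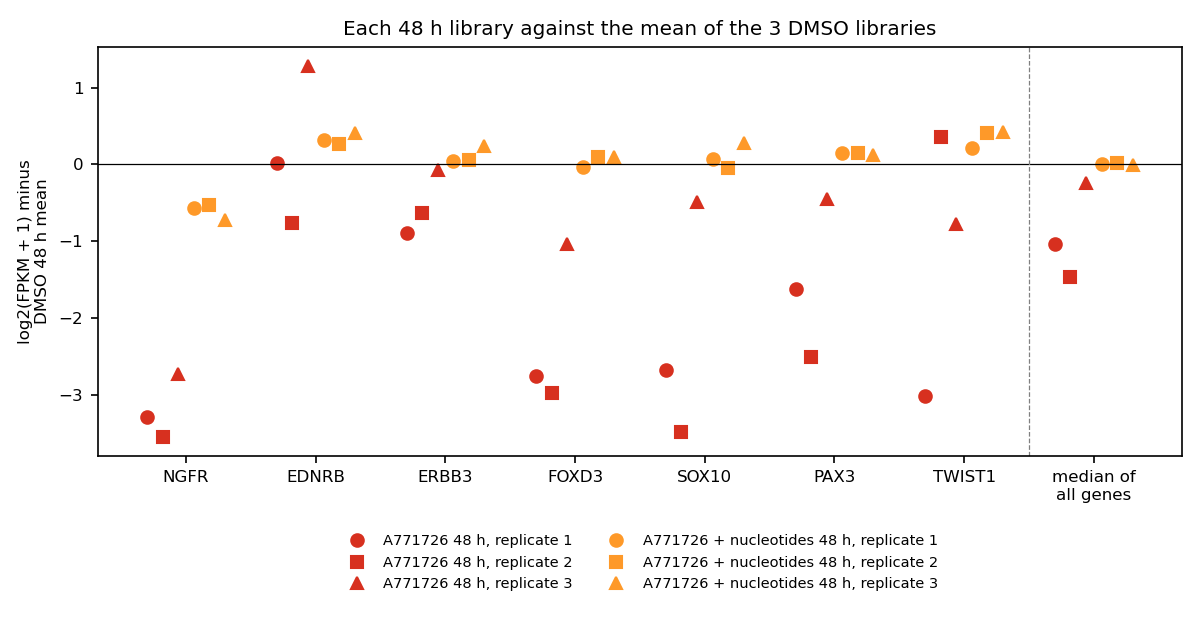
Difference of each A771726 library, with or without nucleotides, from the DMSO mean at 48 h on the log2(FPKM + 1) scale, for the 7 tested genes, with each library's median over all tested genes in the last column. NGFR lies below the median in each A771726 library (-3.28, -3.55 and -2.72 in A771726 replicates 1 to 3, with a listed 0 in replicate 2), whereas EDNRB is at 1.29 in replicate 3.

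The A771726 difference at 48 h was tested against that at 24 h in a fit on all 24 libraries. It was lower at 48 h for 5 of the 7 members, where 30.5% of all tested genes were lower and 30.7% were called. The genes called over the whole table numbered 3700, and 1176 without DMSO replicate 2 at 24 h to 7731 without A771726 replicate 3 at 48 h. NGFR differed by -2.68 ± 0.34 (adjusted p = 0.000777), SOX10 by -2.76 ± 0.73 (adjusted p = 0.0171), FOXD3 by -1.76 ± 0.50 (adjusted p = 0.0199), PAX3 by -1.44 ± 0.46 (adjusted p = 0.0278) and ERBB3 by -0.94 ± 0.29 (adjusted p = 0.0262). With replicate 3 as the only A771726 library at 48 h, NGFR alone was called among the members (-2.22, adjusted p = 0.000982), against 7.21% of all tested genes. Under TPM scaling the calls of ERBB3 and PAX3 were lost (adjusted p of 0.144 and 0.0658) and TWIST1 passed (-1.66, adjusted p = 0.0486), and under median-of-ratios scaling or quantile normalization NGFR alone was called.

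No member passed with nucleotides alone. Against DMSO, 0 of 7 passed at 24 h, where 0.0083% of all tested genes passed, and 0 of 7 at 48 h, where 0% passed. No member had an unadjusted p under 0.05 in either, and limma-trend called 0 in both. A771726 with nucleotides against DMSO also gave 0 of 7 at 24 h and at 48 h, where 0.0249% and 0.0747% of all tested genes passed. At 24 h no member had an unadjusted p under 0.05, and NGFR gave -0.45 ± 0.21 (adjusted p = 0.881). At 48 h 2 members did, NGFR and EDNRB (0.33 ± 0.10, adjusted p = 0.539), and limma-trend called 0 at both times. The EDNRB libraries with both agents, at 10.1 to 11.3 FPKM, did not overlap with DMSO at 48 h.

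Of the receptors, EDNRB and ERBB3 were higher at the later time on the average over the treatments without A771726 alone. Averaged over DMSO, nucleotides and A771726 with nucleotides, EDNRB rose from 24 to 48 h by 0.26 ± 0.06 (adjusted p = 0.00683) and ERBB3 by 0.24 ± 0.06 (adjusted p = 0.0181). EDNRB ran from 6.22 through a median of 7.56 to 8.27 FPKM in 9 libraries at 24 h, and from 7.12 through 9.15 to 11.3 FPKM in 9 libraries at 48 h. ERBB3 ran from 34.9 through 40.9 to 45.9 FPKM and from 43.1 through 46.2 to 58.7 FPKM. The ranges of both genes overlapped. These 2 of 7 members rose and none fell, where 9.28% of all tested genes rose and 7.06% fell (16.3% in all). SOX10 (0.40 ± 0.16, adjusted p = 0.110) passed only without nucleotides replicate 2 at 48 h (0.49, adjusted p = 0.0474) among the leave-outs. Under TPM scaling SOX10, FOXD3 and TWIST1 passed as well (0.53, 0.32 and 0.29, adjusted p of 0.0345, 0.0204 and 0.0312). In a fit on all 24 libraries the EDNRB and ERBB3 calls were lost (adjusted p = 1 for each).

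TFAP2A, SNAI2 and SOX9 stayed too low to test. SOX9, which acts with SOX10 in the crest and in cartilage, ran from 0 through a median of 0.0241 to 0.158 FPKM over the 24 libraries and was listed at 0 in 2. SNAI2, the repressor known as Slug, ran from 0 through 0.202 to 0.787 FPKM. At 24 h SNAI2 was at 0.118 to 0.185 FPKM in DMSO and 0.242 to 0.304 with nucleotides. It was then at 0.360 to 0.710 with A771726 and 0.293 to 0.787 with both agents. These groups lay above DMSO without overlap, at low levels and without a test. TFAP2A ran from 0 through 0.395 to 2.08 FPKM. It was above 1 FPKM in 3 libraries, namely A771726 replicate 1 at 24 h (2.08), A771726 with nucleotides replicate 2 at 24 h (1.32) and nucleotides replicate 3 at 48 h (1.12). These 3 libraries also held the 3 highest values of CSPG4, a melanoma proteoglycan, at 48.4, 33.1 and 61.0 FPKM, and had median rank correlations with the others of 0.905, 0.931 and 0.936. A part of library quality in these values was not tested. The family members TFAP2C (10.5 to 39.2 FPKM) and TFAP2B (2.50 to 11.6 FPKM) were higher than TFAP2A in the 22 libraries, and TFAP2B was named after its values were seen.

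Across the 21 libraries outside A771726 at 48 h, pairs of members varied together. The permutations shuffled all 21 libraries without regard to group, so their p-values also take in differences between treatments and times. ERBB3 and SOX10 had a Pearson r of 0.94 and a Spearman rho of 0.90, each with a permutation p of 1e-05, the smallest that 100000 resamples can give, and an adjusted p of 0.00021 over the 21 pairs. Without the 2 libraries farthest from the median of ERBB3 r was 0.91, and over deviations from the group means it was 0.95. For the pairs below, too, the farthest libraries were those of the first-named gene alone. FOXD3 and TWIST1 had an r of 0.78 (permutation p = 5e-05, adjusted 0.000525) and a rho of 0.63 (permutation p = 0.00266, adjusted 0.0186), with r at 0.58 without the 2 farthest libraries. PAX3 and TWIST1 had an r of 0.66 (permutation p = 0.00096, adjusted 0.00672) and a rho of 0.56 (permutation p = 0.00879, adjusted 0.0369), with r at 0.55. NGFR and EDNRB had an r of -0.56 (permutation p = 0.00709, adjusted 0.0372) and a rho of -0.59 (permutation p = 0.00531, adjusted 0.0279), and r was -0.37 without the 2 farthest libraries. The other 17 pairs did not pass by Pearson's r, and of these NGFR and FOXD3 passed by rho (0.63, permutation p = 0.00244, adjusted 0.0186). Over deviations from the group means, given without a test, r was 0.88 for FOXD3 and TWIST1, 0.83 for PAX3 and TWIST1, and -0.64 for NGFR and EDNRB. There r turned from 0.34 to -0.71 for EDNRB and ERBB3, from 0.11 to -0.73 for EDNRB and SOX10, and from -0.07 to 0.62 for NGFR and ERBB3, and went from 0.12 to 0.66 for NGFR and SOX10 and from 0.51 to 0.77 for FOXD3 and PAX3. The labels name no batch. The libraries share treatments and scaling, and A771726 replicate 1 at 24 h and nucleotides replicate 3 at 48 h held the 2 highest values of both ERBB3 and SOX10.

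**Figure D4:**
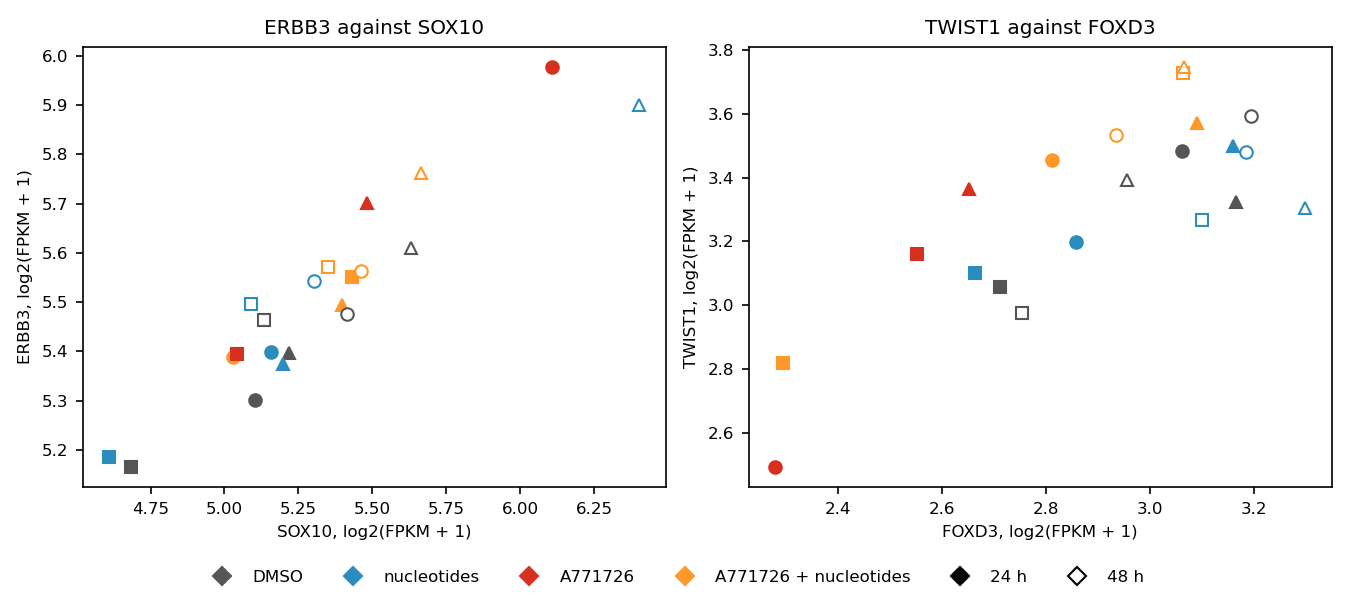
Log2(FPKM + 1) of ERBB3 against SOX10 and of TWIST1 against FOXD3 in the 21 libraries outside A771726 at 48 h. Colours give treatments, filled points 24 h and open points 48 h, and circles, squares and triangles replicates 1, 2 and 3; both panels rise from lower left to upper right (r of 0.94 and 0.78).

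The genes whose pattern over these 21 libraries was most like each member were ranked by Pearson r over all tested genes, as a description with no test. For EDNRB they were TNFRSF19 (0.95), PDE3A (0.95) and SDC2 (0.94). For NGFR they were PLP2 (0.80), TRAF2 (0.76) and TMEM109 (0.72). SOX10 was nearest to ITFG3 (0.97), TNFRSF1A (0.97) and BCKDK (0.96), and ERBB3 to AES (0.95), MOV10 (0.94) and TNFRSF1A (0.94). FOXD3 was nearest to MEX3D (0.94), AP4M1 (0.92) and DHRS3 (0.92), TWIST1 to MPG (0.94), S100A6 (0.92) and MACROD1 (0.92), and PAX3 to WASH3P (0.93), GFER (0.89) and GPANK1 (0.87). TNFRSF1A stood among the top 3 of both SOX10 and ERBB3.

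The wider pathway was read from lists of further genes. Among 34 endothelin, neuregulin and neurotrophin ligands and receptors, 12 were tested, and at 24 h 3 rose with A771726 and none fell, where 10% of all tested genes rose and 7.79% fell. Of these NRG1, MAGED1 and NRP2, the calls of MAGED1 and NRP2 were lost without DMSO replicate 1 (adjusted p of 0.0626 and 0.0635) or 2 (0.0571 and 0.0677), with only the groups compared (0.0814 and 0.0727) and with all 24 libraries (0.378 and 0.637), and NRP2 also without DMSO replicate 3 (0.0538). NRG1, the neuregulin that binds ERBB3, rose from 1.19 ± 0.244 FPKM (SD, n = 3) in DMSO to 5.25 ± 0.147 with A771726 and was at 1.05 ± 0.05 with both agents. Its log2 fold change was 1.52 ± 0.11 (adjusted p = 1.75e-05), and its interaction with nucleotides was -1.49 (adjusted p = 0.00056). The endothelins EDN1, EDN2 and EDN3 reached at most 0.0897, 0.176 and 0.0264 FPKM in any library, and NTF3 was listed at 0 in all. These 4 ligands were named after their values were seen. At 48 h 3 of the 12 fell and none rose, where 32% of all tested genes fell and 0.83% rose. With A771726 replicate 3 alone NRG1 changed by 0.95, and the median of the 12 was -0.22, beside -0.24 over all tested genes.

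Among 37 further crest specifiers, 21 were tested, and at 24 h 3 rose and 2 fell with A771726, where 10% and 7.79% of all tested genes did. MITF, the master regulator of melanocytes, rose from 5.85 ± 0.668 to 11.4 ± 1.99 FPKM and was at 5.02 ± 0.611 with both agents (0.85, adjusted p = 0.00193). RXRG, a retinoid receptor, rose by 0.62 (adjusted p = 0.00626), and NR2F1, an orphan receptor, changed by -0.41 (adjusted p = 0.00626). The call of MSX1 (0.54) was lost with no filter (0.0502), median-of-ratios scaling (0.0636) or quantile normalization (0.176). That of the second gene that fell (-0.38) was lost under TPM scaling (0.838) or with only the groups compared (0.0593). Adding nucleotides changed MITF by -1.04 (adjusted p = 0.000694), among 3 specifiers that rose and 4 that fell, against 4.3% and 9.03% of all tested genes. The MITF interaction of -0.96 (adjusted p = 0.0188) was lost without DMSO replicate 1 or 3 (0.0581 and 0.0533) or nucleotides replicate 1 or 2 (0.0519 and 0.0513). At 48 h 6 specifiers fell and none rose, against 32% and 0.83% of all tested genes. With A771726 replicate 3 alone MITF changed by 0.91, and the median of the 21 was -0.24, the same as over all tested genes.

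Of 20 genes of epithelial-mesenchymal transition and cadherins, 13 were tested, and 2 fell with A771726 at 24 h with none rising, where 7.79% of all tested genes fell and 10% rose. VIM, the intermediate filament vimentin, went from 691.6 ± 34.8 to 366.1 ± 51.7 FPKM and was at 725.4 ± 14.8 with both agents (-0.92, adjusted p = 0.000234). CDH2, N-cadherin, changed by -0.57 (adjusted p = 0.00518). Both rose with added nucleotides (0.99 and 0.71, adjusted p of 0.000168 and 0.0018). Of 20 Schwann cell precursor and glial genes, 11 were tested, 1 rose and 2 fell against the same background, namely NES, the filament nestin (-0.92, adjusted p = 0.00719), and PMP22, a myelin protein (-0.82, adjusted p = 0.000572). Both rose with added nucleotides (0.91 and 0.66, adjusted p of 0.00897 and 0.0021). The call of TNC, the glial gene that rose (0.60), was lost without DMSO replicate 1 (0.0643) or 2 (0.0603) or with only the groups compared (0.0718). TPM scaling, which moved the median of all genes at 24 h to 0.46, ended the calls of VIM, CDH2, NES, PMP22 and NR2F1 against DMSO (adjusted p of 0.0577, 0.620, 0.0844, 0.138 and 0.0924), and quantile normalization ended that of VIM (0.682). For added nucleotides the calls were lost for CDH2 and PMP22 under TPM scaling (0.48 and 0.42, adjusted p of 0.0681 and 0.117) and for VIM under quantile normalization (0.51, adjusted p = 0.186). With only the groups compared the folds were the same and the calls of CDH2, NES and PMP22 were lost (adjusted p of 0.0601, 0.0842 and 0.0593). In a fit on all 24 libraries the 24 h calls of MITF, RXRG, NR2F1, VIM, CDH2, NES and PMP22 against DMSO were lost (0.0998 to 0.948), whereas that of NRG1 was kept (0.0122). In that fit the calls for added nucleotides of MITF, VIM, CDH2, NES and PMP22 were lost too (1, 0.292, 0.966, 0.343 and 0.316), as were the interactions of NRG1 and MITF (0.535 and 1). None of the calls of EDNRB, MITF or NRG1 against DMSO at 24 h was lost under TPM scaling or quantile normalization.

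At 48 h 5 of the 13 transition genes and 6 of the 11 glial genes fell and none rose, where 32% of all tested genes fell and 0.83% rose. VIM changed by -3.09, CDH2 by -2.13, NES by -2.30 and PMP22 by -1.75, and among the specifiers TFAP2C changed by -2.31, FOXD1 by -2.21 and SOX2 by -1.57. Each of these 7 calls was lost without DMSO replicate 1 or without DMSO replicate 3 (adjusted p of 0.0572 to 0.0694). With A771726 replicate 3 alone all 7 were lower than in DMSO, with VIM at -1.99, NES at -2.26 and PMP22 at -1.05. The list medians at 48 h with all 3 libraries were -1.02 (specifiers), -1.03 (transition genes), -0.60 (ligands and receptors) and -1.33 (glial genes), beside -0.87 over all tested genes. With replicate 3 as the only A771726 library they were -0.24, -0.45, -0.22 and -0.34 in that order, beside -0.24 over all tested genes. From 24 to 48 h in the groups without A771726 alone, 2 specifiers rose and 4 fell (9.28% and 7.06% of all tested genes), the latter being ID3 (-0.80, adjusted p = 0.000269), ID2 (-0.68, adjusted p = 1.41e-05), ID1 (-0.61, adjusted p = 0.0125) and ETS1 (-0.35, adjusted p = 0.0171).

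Markers of other cells were low, with exceptions. Of 10 leukocyte markers CD68 and LYZ averaged 1 FPKM or more, and the list summed to 7.56 to 8.64 FPKM in DMSO and 24.1 to 37.2 with A771726 at 24 h, the libraries in which EDNRB rose. CD68 and LYZ were both called higher there (1.80 and 1.65, adjusted p of 1.12e-05 and 0.000187). PTPRC, the pan-leukocyte antigen, reached at most 0.0188 FPKM in any library. Fibroblast markers (2 of 8 at that mean) summed to 1.99 to 2.2 FPKM in DMSO and 4.59 to 5.27 with A771726, with COL1A2 at most 0.0190 FPKM, and LUM and PDGFRB were called higher (0.85 and 0.53, adjusted p of 0.00119 and 0.0106). Keratinocyte markers (4 of 9) summed to 13.9 to 16.3 and 15.03 to 19.1 FPKM, with KRT5 at most 0.0512, and DSC3 was called higher (0.70, adjusted p = 0.000679). DSG3 reached that mean only through the libraries that stood apart, at up to 198.4 FPKM, and was at most 0.224 in the other 22. Endothelial markers (0 of 6) summed to 0.882 to 1.01 and 2.52 to 3.36 FPKM, with PECAM1 at most 0.0291. Neuron markers (1 of 6) summed to 0.907 to 1.19 and 1.47 to 2.46 FPKM. Pigment cell genes (4 of 14 tested) summed to 9.63 to 10.2 and 17.5 to 21.1 FPKM, and MITF was the 1 called. Over all 24 libraries MLANA and RAB27A reached 238.5 and 175.1 FPKM, but at most 0.521 and 1.35 in the 22.

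The same lists moved at 48 h, where NGFR, FOXD3, SOX10 and PAX3 fell. Leukocyte markers summed to 9.33 to 11.4 FPKM in DMSO, to 41.9, 986.4 and 53.7 FPKM in A771726 replicates 1, 2 and 3, and to 9.27 to 9.67 FPKM with both agents. CD68 and LYZ were called higher (1.71 and 3.90, adjusted p of 0.0231 and 0.0202), and both were higher than DMSO in replicate 3 alone. Keratinocyte markers summed to 10.9 to 13.3 FPKM in DMSO and to 2.96, 327.1 and 9.91 FPKM with A771726, and KRT14 was called lower (-1.76, adjusted p = 0.0104). Pigment cell genes summed to 10.5 to 11.3 FPKM in DMSO and to 14.4, 414.7 and 19.3 FPKM with A771726, with none called in the fit on all 3 A771726 libraries. Among them MITF was at 5.95, 7.30 and 5.90 FPKM in DMSO and at 10.9, 0 and 12.8 with A771726. Fibroblast markers summed to 2.81 to 2.97 FPKM and to 4.08, 0.578 and 6.40 FPKM, endothelial markers to 0.636 to 0.766 FPKM and to 1.75, 0 and 2.71 FPKM, and neuron markers to 1.58 to 2.28 FPKM and to 1.60, 0 and 1.96 FPKM. With replicate 3 as the only A771726 library, the median log2 fold changes against DMSO were 2.08 (leukocyte), -0.05 (keratinocyte) and -0.04 (pigment cell). They were 0.54 (fibroblast) and 0.12 (neuron), beside -0.24 over all tested genes. Each list median rested on 1 to 4 tested genes. The part of other cells in the member results was not tested beyond these values.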

How the data were processed

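RNA of A375 cells was measured in 24 libraries (8 groups of 3, taken from the labels). Per the labels' protocols, total RNA was freed of ribosomal RNA and sequenced as paired ends. Per the submitters' processing notes, the authors used cutadapt, TopHat2 2.0.11 and Cufflinks 2.2.1 with hg19; the sources used here name no annotation, strand setting or filter. The deposited table used here holds the authors' FPKM and no counts, so depth is not known from it, no count test was run and the number of libraries limits precision.

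Here the deposited FPKM became log2(FPKM + 1) values, and 12042 of 25268 genes with a mean of 1 FPKM or more over the 24 libraries were kept. Fits used limma 3.58.1 in R 4.3.3 without trend or replicate block, with Benjamini-Hochberg adjustment over all 12042 genes in each of 11 comparisons. The fits held the 12 libraries at 24 h, the 12 at 48 h, the 18 without A771726 alone (time, and nucleotides with or without A771726 against DMSO at 48 h), or all 24 (A771726 difference between times). Two-sided permutation tests of correlations shuffled libraries across groups in 100000 resamples. The fit was tested on simulated data. Among 276 pairs of libraries, at most 0.0117% of genes above 0 in both had identical values, so each library counts once.

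Members and gene lists were chosen with earlier results of these data known. All members are named. From each list up to 4 called genes with the largest changes and up to 2 uncalled could be named, and for each member the 3 genes of most similar pattern. Gene overlaps come from GENCODE and promoters from RefSeq GRCh38.p14. Alternatives changed the pseudocount, filter, scaling, variance model, libraries in the fit and replicate block, and left out libraries.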

Additional observations from a re-analysis of the deposited data

Results flagged for a closer look

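Effects of A771726 that differed under a test of the difference itself are gathered here, and no explanation was tested. At 24 h the EDNRB effect of A771726 depended on nucleotides (interaction of -0.99 on the log2 scale, called by limma). Between times, the A771726 difference at 48 h minus that at 24 h was -2.68 for NGFR, -2.76 for SOX10, -1.76 for FOXD3, -1.44 for PAX3 and -0.94 for ERBB3, and each passed in the fit on all 24 libraries. With replicate 3 as the only A771726 library at 48 h, the differences were smaller. They were -2.22 for NGFR, -1.04 for SOX10, -0.55 for FOXD3, -0.37 for PAX3 and -0.47 for ERBB3. Among the fits that left out 1 library, calls were lost for FOXD3 without DMSO replicate 2 at 24 h, for PAX3 without that library, A771726 replicate 3 at 24 h or DMSO replicate 1 or 3 at 48 h, and for ERBB3 without DMSO replicate 2 or A771726 replicate 1 or 3 at 24 h or DMSO replicate 3 at 48 h.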

How the results depend on the processing

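Counts of called members depended on scaling and on the libraries in the fit, and the causes were not tested beyond what each alternative changes. For A771726 against DMSO at 24 h, 1 member was called, 4 under TPM scaling, 0 with all 24 libraries and 1 to 2 with 1 library left out (2 without A771726 replicate 2). For added nucleotides at 24 h, 1 member was called, 0 with all 24 libraries and 0 with only the groups compared, and the interaction gave 0 with all 24 libraries. At 48 h, 4 members were called for A771726 against DMSO, 1 under TPM scaling, 2 under median-of-ratios scaling, 2 under quantile normalization, 0 with only the groups compared and 1 to 5 with 1 library left out. For added nucleotides at 48 h the 4 became 1 (TPM), 2 (median of ratios), 0 (only the groups compared) and 1 to 6 (1 library left out). For time, 2 members became 5 (TPM), 0 (all 24 libraries) and 2 to 3. For the A771726 difference between times, 5 became 1 (median of ratios), 1 (quantile), 0 (only the groups compared) and 2 to 6 (1 library left out).

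Fold changes that changed sign were as follows. Under TPM scaling, A771726 against DMSO at 24 h was 0.36 for PAX3, which passed, and 0.17 for TWIST1, added nucleotides at 24 h were -0.18 for NGFR and -0.15 for PAX3, NRG1 and MITF against DMSO at 48 h were 0.33 and 0.040, MITF with added nucleotides at 48 h was -0.049, and PAX3 over time was 0.044. Under median-of-ratios scaling at 48 h, ERBB3, NRG1 and MITF against DMSO were 0.20, 0.31 and 0.14, EDNRB, ERBB3 and MITF with added nucleotides were -0.55, -0.10 and -0.29, and EDNRB between times was 0.061. Under quantile normalization NRG1 and MITF against DMSO at 48 h were 0.83 and 0.59, EDNRB and MITF with added nucleotides were -0.64 and -0.72, and EDNRB between times was 0.18. NRG1 with added nucleotides at 48 h was 0.30 with a pseudocount of 0.1. Without A771726 replicates 1 and 2 at 48 h, NRG1 and MITF against DMSO were 0.95 and 0.91, EDNRB and MITF with added nucleotides were -0.95 and -1.04, and EDNRB between times was 0.43. With 1 library left out, added nucleotides at 24 h ran from -0.14 to 0.21 for NGFR, -0.51 to 0.023 for SOX10 and -0.018 to 0.22 for PAX3. Against DMSO at 48 h EDNRB ran from -0.37 to 0.65, NRG1 from -0.55 to 0.41 and MITF from -1.10 to 0.80, and with added nucleotides EDNRB ran from -0.32 to 0.70, NRG1 from -0.63 to 0.33 and MITF from -0.93 to 0.96. Between times TWIST1 ran from -1.61 to 0.071. Without A771726 replicates 1 and 2, EDNRB against DMSO at 48 h went from 0.18 to 1.29 and NRG1 with added nucleotides from -0.17 to -1.17. EDNRB between times kept its sign and moved past the threshold (from -0.67 to -1.23 without A771726 replicate 3 at 48 h, within a range of -1.23 to -0.20 with 1 library left out).

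Replicate numbers were not taken as pairs, because not every same-numbered pair correlated above 0.1. Same-numbered libraries had correlations of deviations from their group means of -0.280 to 0.259 at 24 h, -0.110 to 0.181 at 48 h and -0.206 to 0.300 in the groups without A771726 alone, with 7 of 18, 2 of 18 and 20 of 45 pairs above 0.1. Their medians were 0.085, 0.044 and 0.076, above the -0.0010, -0.0081 and -0.035 of pairs with unlike numbers. The replicate block raised the members called for A771726 against DMSO at 24 h to 4 (NGFR, ERBB3 and FOXD3 beside EDNRB, adjusted p of 0.0122, 0.0413 and 0.0367) and for time to 3, and all genes called from 2148 to 3560 and from 1967 to 3815.

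All genes called against DMSO at 24 h numbered 2148, 1252 with a mean of 5 FPKM, 5337 under TPM scaling, 114 with all 24 libraries and 1030 with only the groups compared. At 48 h they numbered 3956, 2394 with a pseudocount of 0.1, 45 under TPM scaling, 486 under median-of-ratios scaling, 1287 under quantile normalization, 9 with only the groups compared and 25 to 7261 with 1 library left out, and for added nucleotides 3927 and 18 to 7213. The median of all genes against DMSO at 48 h was -0.87, -0.73 under TPM scaling, -0.37 under median-of-ratios scaling and -0.07 under quantile normalization. A filter on the libraries of each fit, chosen after seeing the data, changed no call of a member.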
